A study of Homo sapiens with 6 samples.

Results

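SR proteins are splicing factors with 1 or 2 RNA recognition motifs (RRMs) and a tail rich in arginine and serine (the RS domain), and the values described here are those of 10 of their genes. They were taken by name from the 19330 genes of the count table: SRSF1, SRSF2, SRSF3, SRSF4, SRSF5, SRSF6, SRSF7, SRSF10, SRSF11 and TRA2B. The libraries are RNA-Seq libraries of K562 cells, an established chronic myelogenous leukemia line. The cells were transduced with pLentiCRISPRv2, a lentiviral vector that also encodes Cas9, carrying guides against N6AMT1 (sgN6AMT1) or, in the controls (sgCtrl), guides against the olfactory receptor genes OR11A1 and, as the labels spell it, OR2M49, for which the study's methods have OR2M4. N6AMT1 encodes a methyltransferase with several reported substrates, among them the translation release factor eRF1. All 6 cultures, 3 per condition and each from its own transduction, went through puromycin selection, whose dose the labels and the methods give differently, and were kept until day 10 after infection, so that vector, nuclease and drug were common to both conditions. Which guide a given library received is not given in the sources used here, and no isolation of single clones is described, so each library is a transduced population.

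SR proteins bind short enhancer sequences in exons and help U1 and U2 snRNPs find the splice sites nearby, and several of them also accompany mRNA to the cytoplasm. The cell controls their amount in part through their own transcripts. When an SR protein is abundant, it favors inclusion of a poison exon, an exon with a premature stop codon, in its own pre-mRNA or in that of a relative, and the resulting mRNA is removed by nonsense-mediated decay (NMD), which depends on translation termination. The deposited counts are per gene. They add productive and poison-exon transcripts together, and the inclusion of these exons was not measured here.

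In GENCODE v44 (GRCh38) each of the 10 genes had at least 1 transcript of the NMD class, as did 51.8% of the 8149 tested genes matched to the annotation. Among internal exons of those transcripts that lie wholly within an intron of the canonical transcript and splice to its neighboring exons, 12 were found in 7 of the genes, and none of the 12 was part of a transcript classed as protein coding. In SRSF3, SRSF6, SRSF7, SRSF11 and TRA2B such an exon (9 exons in all) held the stop codon itself. The share of tested genes with an exon of this kind was 20.9%. The remaining 3 exons, in SRSF2 and SRSF4, did not contain the annotated stop codon, and in SRSF1, SRSF5 and SRSF10 no exon met the rule, which does not look at introns within the last exon. The longest stop-containing exon of each of the 5 genes is shown up to its stop codon because it holds the premature stop codon of an annotated NMD transcript. Which of the annotated exons K562 cells use was not measured. Each run starts with the last 20 intronic bases, follows the coding strand of GRCh38, and ends with the premature stop codon in capitals.
SRSF3, 456-base exon in intron 3, plus strand, chr6:36599801-36599854: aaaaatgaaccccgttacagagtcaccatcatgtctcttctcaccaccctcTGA
SRSF6, 268-base exon in intron 2, plus strand, chr20:43459133-43459304: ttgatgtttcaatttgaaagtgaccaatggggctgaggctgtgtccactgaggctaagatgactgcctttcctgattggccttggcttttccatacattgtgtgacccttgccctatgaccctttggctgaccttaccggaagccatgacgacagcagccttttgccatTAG
SRSF7, 449-base exon in intron 3, minus strand, chr2:38749319-38749366: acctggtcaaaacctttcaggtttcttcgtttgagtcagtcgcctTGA
SRSF11, 117-base exon in intron 2, plus strand, chr1:70231839-70231908: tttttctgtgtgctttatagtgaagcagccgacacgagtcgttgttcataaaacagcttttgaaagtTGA
TRA2B, 276-base exon in intron 1, minus strand, chr3:185931772-185931872: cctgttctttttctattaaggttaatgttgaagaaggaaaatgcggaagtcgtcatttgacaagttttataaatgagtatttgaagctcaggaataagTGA
The stop codon ended 34 bases into the SRSF3 exon, 152 into that of SRSF6, 28 into that of SRSF7, 50 into that of SRSF11 and 81 into that of TRA2B.

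In GRCh38 the genes lie on 7 chromosomes. SRSF4 (chr1:29147743-29181900), SRSF10 (chr1:23964347-23980927) and SRSF11 (chr1:70205682-70253052) are on chromosome 1, and SRSF1 (chr17:58000919-58007346) and SRSF2 (chr17:76734115-76737333) on chromosome 17. The others are SRSF7 (chr2:38743599-38751494), TRA2B (chr3:185914558-185938103), SRSF3 (chr6:36594353-36605600), SRSF5 (chr14:69726900-69772005) and SRSF6 (chr20:43457893-43466046).

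Total counts ran from 742470 to 866894 in sgCtrl and from 959319 to 5526904 in sgN6AMT1, where replicates 2 and 3 were the deeper libraries. The control libraries held 6, 5 and 9 counts of N6AMT1 itself, and those of sgN6AMT1 held 0, 18 and 16. As cpm, counts per 1000000 counts of the library, these are 8.08 ± 2.31 against 2.40 ± 2.10 (SD, n = 3 each; p = 0.1 by a two-sided exact permutation test, which cannot go lower with 3 libraries on each side). The 0 counts of sgN6AMT1 replicate 1 allow up to 3.13 cpm. All 14 erythroid genes listed as K562 markers had counts in every library. Together they stood at 14064 to 20472 cpm in sgCtrl and at 20816 to 36446 cpm in sgN6AMT1. Of 11 lymphoid, fibroblast and epithelial markers listed, 10 are in the table. MS4A1 and KRT5 had no count, 3 had counts in every library, and the highest count of a single marker in a library was 644. The sum was 163 to 187 cpm in sgCtrl and 118 to 173 cpm in sgN6AMT1. The part of the difference in erythroid markers in the values below was not tested.

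The question put to the SR genes was whether their transcripts differ between N6AMT1-depleted and control cells. None of the 10 passed the threshold, although each had a log2 fold change below 0. The values were lowest for SRSF4 (-0.66), SRSF11 (-0.46) and TRA2B (-0.43), and that of SRSF1 was nearest to 0 (-0.00016). The 10 genes passed the filter on low counts and were tested with edgeR's quasi-likelihood test, with p-values adjusted by Benjamini-Hochberg over the 8324 genes tested. At an adjusted p under 0.05 the test called 9.85% of all genes (5.09% higher and 4.76% lower in sgN6AMT1) and 0 of the 10 SR genes. DESeq2 also called 0 of them. A log2 fold change below 0 was found for 49.2% of all genes. An unadjusted p under 0.05 with a lower value was found for 3 SR genes and for 13.1% of all genes. SRSF6, SRSF11 and TRA2B had no overlap between the conditions, lower in sgN6AMT1, as had 14.1% of all genes. The median log2 fold change was -0.23 for the 10 genes and 0.0087 for all genes tested.

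**Figure D1:**
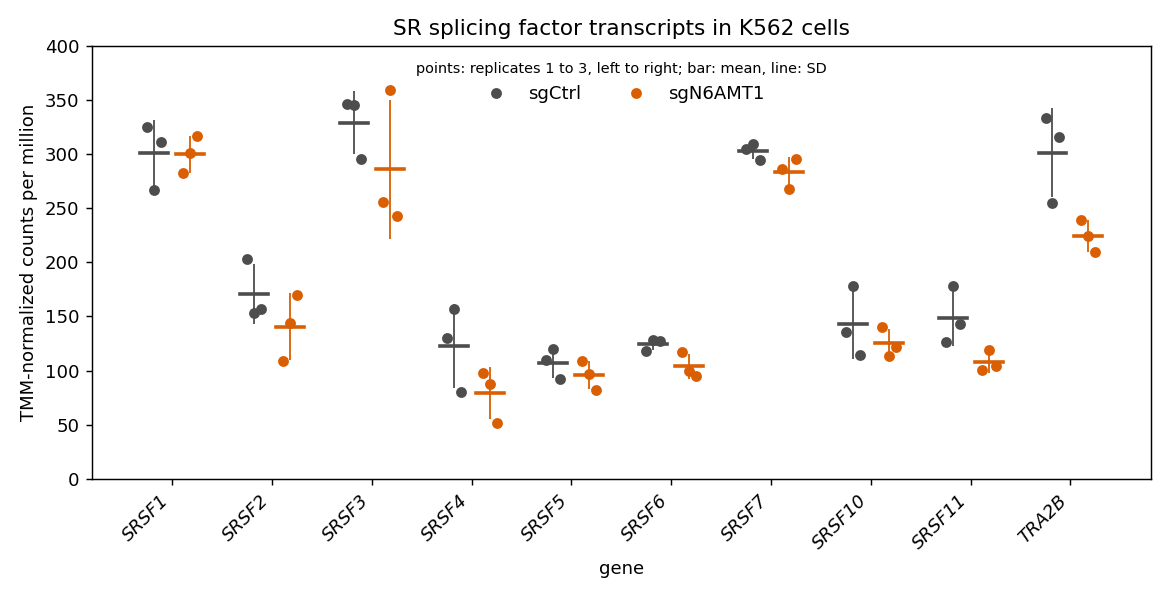
TMM-normalized cpm (vertical axis) of the 10 SR genes (horizontal axis) in the 3 sgCtrl libraries (gray) and the 3 sgN6AMT1 libraries (orange), with the mean (bar) and SD (line) of each condition. SRSF6, SRSF11 and TRA2B are the genes whose conditions do not overlap, and SRSF1 has nearly the same mean in both.

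Among the SR proteins with 1 RRM, SRSF7, which also carries a zinc knuckle and takes part in mRNA export, had 305, 309 and 295 TMM-normalized cpm in sgCtrl and 287, 268 and 295 in sgN6AMT1, each in the order of the replicate numbers. The highest sgN6AMT1 library lay just above the lowest control. Its log2 fold change was -0.10 (standard error 0.14; 95% confidence interval -0.39 to 0.19, edgeR adjusted p = 0.701). SRSF3, the smallest SR protein, had 347, 345 and 296 cpm in sgCtrl and 256, 360 and 242 in sgN6AMT1, so that sgN6AMT1 replicate 2 stood above every control and the other sgN6AMT1 libraries below every control. Its log2 fold change was -0.19 (95% confidence interval -0.54 to 0.15, edgeR adjusted p = 0.488). SRSF2, also known as SC35 and mutated in myeloid neoplasms, had 203, 153 and 157 cpm in sgCtrl and 109, 144 and 170 in sgN6AMT1. Replicate 3 of sgN6AMT1 lay within the controls. The log2 fold change of SRSF2 was -0.25 (95% confidence interval -0.63 to 0.12, edgeR adjusted p = 0.391). The gene overlaps MFSD11, which lies on the opposite strand and received 28 to 209 counts per library, and whether the counting used the strand that the library kit keeps is not given in the sources used here.

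Of the SR proteins with 2 RRMs, SRSF1, the founding member of the family and a proto-oncogene product, had 325, 267 and 311 cpm in sgCtrl and 282, 301 and 317 in sgN6AMT1. All 3 sgN6AMT1 libraries lay within the range of the controls. The 95% confidence interval of its log2 fold change, -0.30 to 0.30 (edgeR adjusted p = 1.000), corresponds to a ratio between 0.811 and 1.23. SRSF4, the longest SR protein of this class, was the most variable of the 10 genes, with 130, 157 and 80 cpm in sgCtrl and 98, 88 and 52 in sgN6AMT1. The third replicate was the lowest of each condition, and sgCtrl replicate 3 lay below sgN6AMT1 replicates 1 and 2. The means of SRSF4 were 122 ± 39.0 and 79.1 ± 24.3 cpm (SD, n = 3 each), which gave -0.66 as log2 fold change (standard error 0.25, 95% confidence interval -1.18 to -0.15, edgeR adjusted p = 0.0906). Whether SRSF4 was called depended on single libraries: its edgeR adjusted p was 0.0380 without sgCtrl replicate 3 and 0.0358 without sgN6AMT1 replicate 1.

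SRSF5 had 110, 120 and 92 cpm in sgCtrl and 109, 97 and 82 in sgN6AMT1, with overlap in 2 of the 3 sgN6AMT1 libraries. Its log2 fold change was -0.18 (95% confidence interval -0.56 to 0.19, edgeR adjusted p = 0.562). SRSF6 had 118, 128 and 127 cpm in sgCtrl and 117, 100 and 95 in sgN6AMT1. The conditions were just apart, with replicate 1 of each the nearest. With a log2 fold change of -0.28 (95% confidence interval -0.62 to 0.06, edgeR adjusted p = 0.293) the difference of SRSF6 did not pass.

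The SR-related genes are SRSF10, which represses splicing once it is dephosphorylated in mitosis or heat shock, SRSF11, a partner of U2AF at the 3' splice site, and TRA2B, the human counterpart of fly transformer-2 that binds GA-rich exonic enhancers. TRA2B had 333, 255 and 316 cpm in sgCtrl and 239, 224 and 210 in sgN6AMT1. All 3 sgN6AMT1 libraries were below every control, with sgCtrl replicate 2 the nearest. The means of TRA2B were 301 ± 41.1 and 224 ± 14.7 cpm (SD, n = 3 each), which gave -0.43 as log2 fold change (standard error 0.15, 95% confidence interval -0.74 to -0.12, edgeR adjusted p = 0.0749). It had the lowest unadjusted p of the 10 genes (0.0100, lower in 3 of 3 sgN6AMT1 libraries). SRSF11 had 126, 178 and 143 cpm in sgCtrl and 100, 119 and 104 in sgN6AMT1, also without overlap. Its means were 149 ± 26.2 and 108 ± 9.90 cpm (SD, n = 3 each), with a log2 fold change of -0.46 (standard error 0.17, 95% confidence interval -0.82 to -0.11, edgeR adjusted p = 0.0898). SRSF10 had 136, 178 and 114 cpm in sgCtrl and 140, 114 and 122 in sgN6AMT1, where the libraries of both conditions interleaved. Its log2 fold change was -0.20 (95% confidence interval -0.58 to 0.17, edgeR adjusted p = 0.503).

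**Figure D2:**
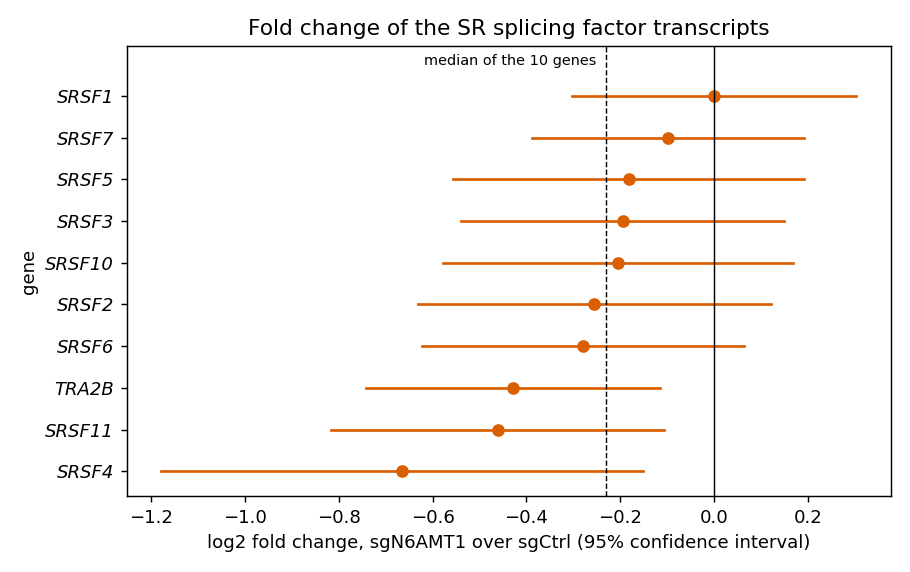
Log2 fold change of each SR gene, sgN6AMT1 over sgCtrl (horizontal axis), with its 95% confidence interval from the edgeR fit (line); genes are ordered from the highest to the lowest value and the dashed line is their median, -0.23. The intervals of SRSF4, SRSF11 and TRA2B lie below 0 before adjustment for the number of genes tested.

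The spread between replicates exceeded what counting alone gives for some of these genes and not for others. In sgCtrl the coefficient of variation of SRSF4 was 31.8%, where its 68 to 136 counts per library give 10.4% from counting, and that of SRSF10 was 22.6% against 9.43%. SRSF6 (4.39% against 9.94%) and SRSF7 (2.46% against 6.36%) varied less than their counts would give. In sgN6AMT1 the largest values besides SRSF4 (30.7%) were those of SRSF3 (22.4% against 4.35% from counting) and SRSF2 (21.8% against 6.45%).

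With each gene set against its control mean, the median log2 value over the 10 genes came to 0.06, 0.06 and -0.08 in the control libraries and to -0.18, -0.27 and -0.38 in those of sgN6AMT1. In each sgN6AMT1 library 8 or 9 of the 10 genes were below the control mean, against 3, 3 and 7 in sgCtrl replicates 1 to 3. The control libraries are part of that mean, so their counts are not an independent comparison. Over all genes tested the median of a library lay between 0.0025 and 0.033. The 10 genes together took 0.214%, 0.209% and 0.189% of all counts in sgCtrl and 0.172%, 0.180% and 0.162% in sgN6AMT1. These shares average 0.204 ± 0.0131% and 0.171 ± 0.00906% (SD, n = 3 each), with no overlap between the conditions. The 95% Wilson intervals, which cover counting error only, of the nearest libraries (0.180% to 0.198% in sgCtrl replicate 3, 0.176% to 0.183% in sgN6AMT1 replicate 2) overlapped. With sgN6AMT1 replicates 2 and 3 thinned to the depth of the controls, 0 of the 10 genes were called and the median log2 fold change was -0.21. With sgN6AMT1 replicate 1 as the only N6AMT1-depleted library, the median was -0.19 and SRSF5 was at 0.03. In that fit the spread comes from the controls alone and the lone library is assumed to vary like them, so that its calls (0 of the 10 genes, and 122 of all genes against 820) say little about stability.

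Transcript GC content also moved with these values. The SR transcripts had a median GC content of 39.9%, against 47.1% over the genes tested, and 6 of the 10 genes (SRSF1, SRSF3, SRSF6, SRSF7, SRSF10 and SRSF11) belonged to the fifth of genes with the lowest GC content, whose median log2 fold change was -0.14. In the fifth with the highest GC content the median was 0.19. After correction of each library for GC content and transcript length, the median log2 fold change of the 10 genes was -0.16, 0 were called, and 8 were below 0, with SRSF1 at 0.14 and SRSF7 at 0.0020. SRSF4, with a GC content of 51.4%, was at -0.76 (edgeR adjusted p = 0.0528), TRA2B at -0.34 and SRSF11 at -0.33 in that fit.

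Levels were compared between the genes as TMM-normalized cpm per kb of the canonical transcript. In sgCtrl SRSF7 was highest, with 129 ± 3.16 cpm per kb (SD, n = 3), and every replicate of it lay above every replicate of the other 9 genes. SRSF2 (90.6 ± 14.6), SRSF3 (77.9 ± 6.82), TRA2B (72.1 ± 9.84) and SRSF5 (71.8 ± 9.51) followed, and the replicates of each overlapped those of the next in this order. SRSF1 (56.3 ± 5.74), SRSF4 (53.2 ± 16.9) and SRSF11 (37.6 ± 6.63) likewise overlapped one with the next, and SRSF1 did not overlap SRSF5. SRSF6 (28.6 ± 1.25) and SRSF10 (18.6 ± 4.21) were lowest and apart from their neighbors. In sgN6AMT1 the order was the same except that TRA2B moved from rank 4 to rank 6, behind SRSF5 and SRSF1. The order depends on the length used. With the union of all annotated exons in place of the canonical transcript, SRSF7, SRSF2 and SRSF10 kept ranks 1, 2 and 10, whereas SRSF1 moved from rank 6 to 3 and SRSF6 from rank 9 to 5.

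**Figure D3:**
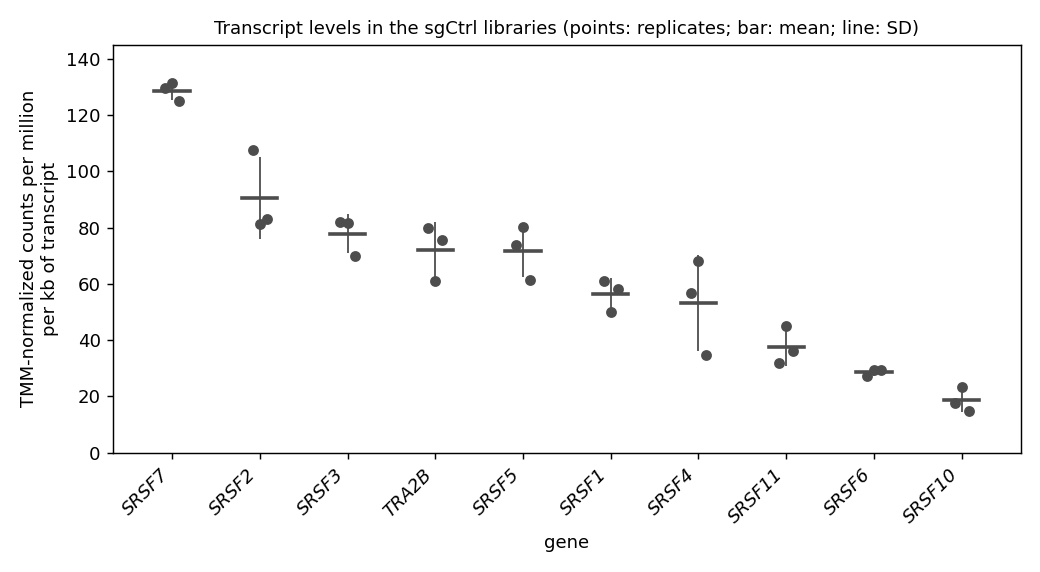
TMM-normalized cpm per kb of canonical transcript (vertical axis) of the 10 SR genes (horizontal axis) in the 3 sgCtrl libraries, with mean (bar) and SD (line). SRSF7 stands above the other genes at 129 and SRSF10 is lowest at 18.6.

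Within the counts of the 10 genes, which does not depend on the scaling between libraries, SRSF1 made up 15.2%, 12.8% and 16.1% in sgCtrl and 16.3%, 16.6% and 18.8% in sgN6AMT1. The conditions were just apart, with means of 14.7 ± 1.74% and 17.2 ± 1.36% (SD, n = 3 each), and overlapped once counts were divided by transcript length. As the shares are parts of one sum, a share can be higher without a higher level. The log2 fold change of SRSF1 was -0.00016. TRA2B had means of 14.7 ± 2.22% and 12.9 ± 0.796%, and SRSF4 of 5.92 ± 1.69% and 4.51 ± 1.32%, with overlap in both cases. For the other 7 genes the mean share differed between the conditions by between -1.11 (SRSF11) and 1.47 (SRSF7) percentage points, and the conditions overlapped.

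The rest of the SR pathway was followed with fixed gene lists, each read against the 9.85% of all genes that were called. Of the other SR family genes, SRSF8, SRSF9 and TRA2A were tested, none was called, and SRSF12 had no count. TRA2A, the paralog of TRA2B, had means of 43.0 ± 8.35 cpm (sgCtrl) and 27.9 ± 6.03 cpm (sgN6AMT1; SD, n = 3 each), without overlap (log2 fold change -0.61, edgeR adjusted p = 0.140). SRSF8, at 18.3 ± 1.53 and 25.3 ± 6.43 cpm, had a log2 fold change of 0.49 (edgeR adjusted p = 0.333), also without overlap and in the opposite direction.

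RS domains are phosphorylated by SRPK kinases in the cytoplasm and CLK kinases in the nucleus, and TNPO3 carries the phosphorylated proteins through the nuclear pore. Of 14 tested genes of these kinases, of phosphatases and of transport, 1 was called, with a median log2 fold change of -0.35. The gene was PRPF4B, a kinase of the tri-snRNP, which fell from 190 ± 16.0 to 110 ± 31.4 cpm (SD, n = 3 each; log2 fold change -0.82, edgeR adjusted p = 0.0136). All 3 sgN6AMT1 libraries lay below the controls, and without sgCtrl replicate 2 no gene of this list was called.

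The RS-domain cofactors, splicing proteins that meet SR proteins through their own RS domains, had 32 tested genes. All 32 had a log2 fold change below 0, with a median of -0.45, and 11 were called, each lower in sgN6AMT1. U2AF1, which reads the AG of the 3' splice site, fell from 202 ± 44.3 to 75.5 ± 26.8 cpm (SD, n = 3 each; log2 fold change -1.44, edgeR adjusted p = 0.00121). SRRM1, a coactivator that bridges SR proteins and snRNPs, fell from 170 ± 34.1 to 69.7 ± 35.3 cpm (log2 fold change -1.40, edgeR adjusted p = 0.00311), and SCAF4, which binds RNA polymerase II, from 97.5 ± 9.14 to 40.3 ± 16.5 cpm (log2 fold change -1.37, edgeR adjusted p = 0.00279). The smallest changes among the called genes were those of BCLAF1 (-0.48), LUC7L2 (-0.63) and THRAP3 (-0.64). The count of 11 went to 4 without sgCtrl replicate 1, to 3 without sgCtrl replicate 2 and to 7 without sgN6AMT1 replicate 3.

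hnRNP and PTB proteins often act against SR proteins at the same exons. Of their 24 tested genes 11 were called, all lower in sgN6AMT1, and the median log2 fold change was -0.55. HNRNPA3 (-2.02), HNRNPH3 (-1.94) and HNRNPD (-1.61) had the lowest values, and HNRNPC (-0.52), HNRNPDL (-0.61) and PCBP1 (-0.75) the highest among those called. The count was 7 without sgCtrl replicate 1 and 5 without sgCtrl replicate 2. The difference in fold change between the SR genes and either list was not tested.

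**Figure D4:**
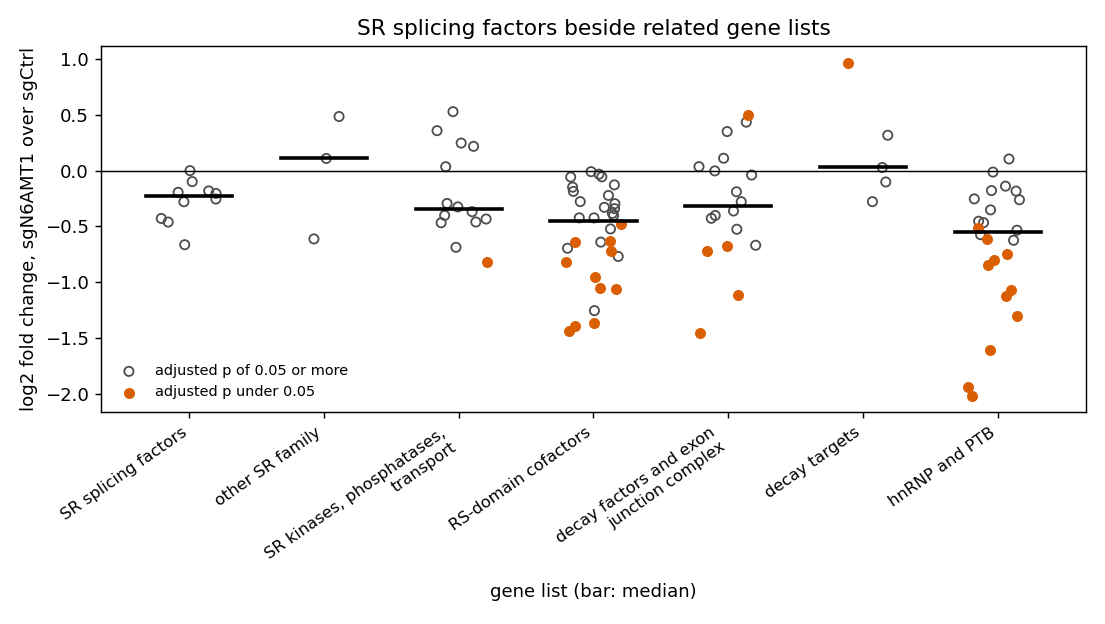
Log2 fold change, sgN6AMT1 over sgCtrl (vertical axis), of each tested gene of the SR splicing factors and of 6 related gene lists (horizontal axis), with filled points for an adjusted p under 0.05 and a bar for the median. The 10 SR genes lie between -0.66 and -0.00016 with none filled, and the RS-domain cofactors and the hnRNP and PTB genes have 11 filled points each, all below 0.

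Poison-exon transcripts are removed by the UPF and SMG factors together with the exon junction complex. Of 18 tested genes, 4 were called lower and 1 higher in sgN6AMT1, with a median log2 fold change of -0.32. UPF3A fell from 56.3 ± 12.6 to 20.9 ± 3.64 cpm (SD, n = 3 each; log2 fold change -1.45, edgeR adjusted p = 0.00213), and its paralog UPF3B from 36.7 ± 5.38 to 17.8 ± 8.10 cpm (log2 fold change -1.12, edgeR adjusted p = 0.0455). Both link the exon junction complex to UPF2. CASC3, a peripheral part of the exon junction complex, had a log2 fold change of -0.68 (edgeR adjusted p = 0.0467). NBAS, which serves decay at the endoplasmic reticulum, rose from 336 ± 26.8 to 475 ± 51.8 cpm (log2 fold change 0.50, edgeR adjusted p = 0.0372). UPF1, the helicase at the center of the pathway, had a log2 fold change of 0.11 (edgeR adjusted p = 0.752) and was added after its value was seen. The 5 calls went to 1 without sgCtrl replicate 1, to 1 without sgCtrl replicate 2, to 3 without sgN6AMT1 replicate 2 and to 2 without sgN6AMT1 replicate 3.

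Of 12 transcripts listed as known targets of NMD, 8 are in the table and 5 were tested. TBL2, which has upstream reading frames, rose from 40.5 ± 8.68 to 79.0 ± 16.1 cpm (SD, n = 3 each; log2 fold change 0.97, edgeR adjusted p = 0.0142), with all 3 sgN6AMT1 libraries above the controls, and the other 4 were not called. The call of TBL2 was lost without sgCtrl replicate 2 and without sgCtrl replicate 3. Over all matched genes tested, the median log2 fold change was 0.0097 for those with an annotated NMD transcript and 0.0065 for those without one. For genes with a stop-containing exon of the kind shown above it was -0.011, and 0.015 for those without.

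Outside these lists, the genes whose profile over the 6 libraries was most like the mean profile of the 10 SR genes were TPR, TJP1, CHD1, GTF2F1 and PSMD7, with Pearson's r from 0.985 to 0.990. They are the highest of 4083 genes with a mean of at least 50 cpm, all values come from the same 6 libraries, and the mean profile of the SR genes itself was lower in each sgN6AMT1 library (centered log2 values of -0.10, -0.08 and -0.22) than in each sgCtrl library (0.18, 0.21 and 0.01).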

How the data were processed

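Total RNA of cleared lysates was sequenced after rRNA depletion from 3 sgCtrl and 3 sgN6AMT1 transductions of K562 cells. The authors trimmed reads with cutadapt, mapped them with HISAT2 to GRCh38 and deposited raw gene counts on the annotation of release 84, without normalization; the counting tool, the strand setting and the treatment of multi-mapping reads are not given in the sources used here. SRSF1, SRSF2, SRSF3, SRSF6 and SRSF10 have annotated pseudogenes, and whether reads are shared with them was not measured.

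All other values were computed from these counts. Genes were filtered (filterByExpr), scaled by TMM and tested with edgeR 4.0.16 (R 4.3.3), glmQLFit and glmQLFTest, over 8324 genes (common biological coefficient of variation 0.16), with Benjamini-Hochberg adjustment and a threshold of 0.05. Standard errors are the log2 fold change divided by the root of F. The alternatives, 17 in number, include DESeq2 1.42.0, other scalings and filters, thinning, a replicate block, a GC content and length correction (97.9% of genes tested had both values), and each library left out. The comparison of 3 sgCtrl libraries with sgN6AMT1 replicate 1 alone and the union of exons as length were added after seeing the data. Symbols (18825 of 19330), lengths and positions come from GENCODE v44; 868 symbols matched through older names in the RefSeq gene table (GRCh38.p14). Permutation tests used Python 3.11.15. The fit was tested on simulated data. Replicates were separate transductions. The genes, lists and tests were chosen with earlier results of these data known. Named genes of a list are those called, or where over 6 were called the 3 highest and 3 lowest, or where none was called the 2 with the largest absolute log2 fold change, and the 5 genes most like the mean SR profile. The values of 1 called gene of these lists are not reported here.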

Additional observations from a re-analysis of the deposited data

How the results depend on the processing

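The count of differentially expressed SR genes, 0, was 1 without a filter on low counts (SRSF4, log2 fold change -0.67, in a fit whose median over all genes was 0.12), 2 with the replicate number as a block (SRSF4 and SRSF11) and 1 with the block and the GC content and length correction together (SRSF4); leaving out single libraries gave 0 to 1. No fit called an SR gene as higher. Deviations from the condition means correlated by -0.00052, 0.08 and 0.19 for replicates 1 to 3, and by -0.19 to 0.14 between libraries of different numbers. With 3 libraries per condition these correlations cannot decide whether the numbers pair the libraries. The median log2 fold change of the 10 genes, -0.23, moved in every alternative by less than 0.0916. That value is the SD between replicates of the medians of single libraries, pooled over the conditions. It is not an error of the fold change, so a smaller move does not show stability. The median fold change was -0.16 with the GC content and length correction and -0.15 with the correction and the block. Single libraries left out gave -0.30 to -0.20. SRSF1 was positive with at least 10 counts in every library (0.0264), with the block (0.0050), with the GC content and length correction (0.14) and with both (0.15), and ranged from -0.0903 to 0.0539 with single libraries left out. SRSF7 was positive with the correction (0.0020) and with the correction and the block (0.00079), and SRSF5 with sgN6AMT1 replicate 1 alone (0.0281). The adjusted p of SRSF4 ran from 0.00133 to 0.412, that of TRA2B from 0.0507 to 0.234 and that of SRSF11 from 0.0496 to 0.386 over the alternatives with at least 2 libraries per condition. With sgN6AMT1 replicate 1 alone, where only the controls give the spread, they were 0.739, 0.658 and 0.382.

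All differentially expressed genes numbered 820. They were 1395 with the block and the correction, 122 with sgN6AMT1 replicate 1 alone, and 220 to 951 with single libraries left out. Of kinases, phosphatases and transport, 2 were called with DESeq2, RLE size factors, total counts or the block, 3 with the correction and 4 with both, and 0 to 2 with single libraries left out. Of NMD and exon junction factors, 3 were called with DESeq2 and 3 after thinning, and 1 to 5 with single libraries left out. In the same fits, RS-domain cofactors ranged from 3 to 13, hnRNP and PTB genes from 5 to 12, NMD targets from 0 to 1, and the share of counts on the SR genes differed by -0.0404 to -0.0280 percentage points. At the depth of the controls, 68 to 299 counts per SR gene limit the precision.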
